A study of Mus musculus with 28 samples.

Results

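Liver NK cells were studied here as wells of sorted single cells chosen by their transcripts. A well was counted as an NK well if it held at least 300 gene UMIs (unique molecular identifiers, each marking 1 captured mRNA molecule), at least 3 UMIs summed over Gzma, Gzmb, Klre1, Klra9, Cd244, Ncr1, Prf1 and Cd7, and 0 UMIs of Cd3d, Cd3e, Cd3g, Cd79b, Clec4f and Siglech. The rule found 104 NK wells among 2692 wells with enough UMIs, out of 3720 wells in all (3.86% of the wells kept, exact 95% interval 3.17% to 4.66%). They were set beside 510 T wells, which held at least 2 UMIs of Cd3g, Cd3e, Bcl11b, Cd28 and Thy1 and were not NK wells, and beside the 2078 other wells. The values of those genes chose the wells, so they are given below as a description only.

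The wells came from non-parenchymal cells, the liver cells other than hepatocytes, of C57BL/6 male mice that were fasted for a short time before the liver was perfused with collagenase. There were 11 libraries of 2 mice, 1 aged 3 months and 1 aged 4 months, and no treatment was compared. A further 17 libraries of 3 mice aged 6 or 7 weeks held pairs of a hepatocyte and an attached CD31+ cell. Libraries were made with MARS-seq, which counts molecules at their 3′ ends in wells of plates, so a level does not depend on the length of the transcript. No source maps the wells to libraries or mice, and no source used here gives the sort gate of a plate. The single cells were therefore 1 pooled sample, no p-value was computed, and all intervals are 95% intervals that cover counting error only, not differences between wells or mice.

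Natural killer cells are lymphocytes that kill infected or transformed cells without a rearranged antigen receptor. They read the target through a balance of activating and inhibitory receptors, many of them C-type lectin-like proteins encoded together in the natural killer gene complex, and pass activating signals through small adaptors such as DAP12, DAP10 and the Fc receptor gamma chain. Killing uses perforin and granzymes released from granules, and activated cells also secrete chemokines and interferon gamma. The liver is known for 2 related populations, circulating NK cells that express Eomes and tissue-resident type 1 innate lymphoid cells (ILC1) that express receptors such as Cxcr6, Cd200r1 and Itga1.

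Of the 8 genes of the rule 6 had a promoter entry in the RefSeq table of build GRCm38.p6, and the sequences shown are the 250 bases before the first listed start of 5 of them, because those 5 share a short motif. Capitals mark the RUNX motif TGTGGT and the ETS motif AGGAAG, each on either strand. They are named for the transcription factor families that bind such sites.
Gzma (chr13:113100982-113101231, minus strand): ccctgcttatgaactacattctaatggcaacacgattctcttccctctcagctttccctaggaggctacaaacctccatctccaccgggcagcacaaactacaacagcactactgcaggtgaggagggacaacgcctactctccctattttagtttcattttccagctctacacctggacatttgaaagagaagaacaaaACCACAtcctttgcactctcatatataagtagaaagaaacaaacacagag
Gzmb (chr14:56262335-56262584, minus strand): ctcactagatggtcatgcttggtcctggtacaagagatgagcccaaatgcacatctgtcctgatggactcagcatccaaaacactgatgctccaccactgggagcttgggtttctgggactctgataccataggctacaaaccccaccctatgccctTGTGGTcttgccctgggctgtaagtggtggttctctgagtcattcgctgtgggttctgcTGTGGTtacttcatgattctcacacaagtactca
Klre1 (chr6:129577963-129578212, plus strand): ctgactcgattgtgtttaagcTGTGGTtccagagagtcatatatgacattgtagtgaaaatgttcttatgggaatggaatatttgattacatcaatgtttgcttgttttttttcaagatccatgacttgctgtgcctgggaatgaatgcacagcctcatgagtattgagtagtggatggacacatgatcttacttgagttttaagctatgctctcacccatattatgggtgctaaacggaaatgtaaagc
Ncr1 (chr7:4337465-4337714, plus strand): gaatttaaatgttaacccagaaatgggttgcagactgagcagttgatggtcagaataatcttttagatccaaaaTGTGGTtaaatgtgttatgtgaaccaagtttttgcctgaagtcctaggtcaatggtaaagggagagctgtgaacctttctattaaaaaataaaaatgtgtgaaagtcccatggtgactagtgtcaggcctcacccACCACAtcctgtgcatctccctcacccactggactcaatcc
Prf1 (chr10:61297586-61297835, plus strand): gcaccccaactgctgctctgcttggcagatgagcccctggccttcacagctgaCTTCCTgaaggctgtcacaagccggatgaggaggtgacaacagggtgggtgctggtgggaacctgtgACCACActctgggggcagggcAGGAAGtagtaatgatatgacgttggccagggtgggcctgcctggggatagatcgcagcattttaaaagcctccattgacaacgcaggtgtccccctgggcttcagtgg
TGTGGT occurred in 5 of these 6 windows (the window of Klra9 lacked it), against 14.2% of 27025 genes in the table. It occurred in 1 of the 12 windows found among the 15 genes with the largest NK to T ratio given below. AGGAAG occurred in 1 of the 6 windows, Prf1, against 29.2% of all genes, and a T-box motif, GGTGTGA, in 0 against 3.31%. A match of letters is a description and not a binding site.

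A second pair of promoters is shown because Klra4 and Klra8 had the first and the third largest NK to T ratio and came from the same gene cluster. Capitals would mark the same motifs, and neither window held one.
Klra4 (chr6:130067272-130067521, minus strand): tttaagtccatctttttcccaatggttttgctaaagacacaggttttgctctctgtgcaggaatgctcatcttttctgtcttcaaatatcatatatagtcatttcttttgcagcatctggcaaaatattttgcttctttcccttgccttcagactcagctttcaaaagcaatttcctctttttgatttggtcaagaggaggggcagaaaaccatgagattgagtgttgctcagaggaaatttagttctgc
Klra8 (chr6:130129899-130130148, minus strand): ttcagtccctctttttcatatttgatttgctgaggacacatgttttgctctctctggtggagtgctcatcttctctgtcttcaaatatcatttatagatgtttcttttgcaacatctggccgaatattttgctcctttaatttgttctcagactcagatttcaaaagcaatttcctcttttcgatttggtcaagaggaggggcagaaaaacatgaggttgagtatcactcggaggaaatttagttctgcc
Aligned end to end, the windows were identical at 212 positions, with 37 mismatches and 2 gap positions (84.5% identity). The windows of Klra4 and Klra9, by comparison, were identical at 153 positions, with 30 mismatches and 134 gap positions. Gap positions count against identity, which was 48.3%, so this value does not show that the aligned bases differ more.

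The label was checked against NK genes that the rule did not use. The median NK well held 7 UMIs of 17 such genes, among them Klrb1c (the NK1.1 antigen), Klrk1 (NKG2D), Klrd1 (CD94), Il2rb, Nkg7, Xcl1 and Ctsw. The median T well held 4, and the median other well 0. Among the 104 NK wells 11 held none of these 17 genes (10.6%), against 14.3% of the T wells and 75.4% of the other wells, so a UMI of these genes is nearly as common in T wells. Itga2, which encodes DX5, was at 0 UMIs in all NK wells.

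Wells near the threshold of 3 UMIs carried fewer NK genes. The 46 wells with 2 UMIs of the rule genes, just outside it, had a median of 0 UMIs of the 17 genes, and 25 of them held none. The 26 wells with 3 UMIs, just inside it, had a median of 4, and 7 held none. With 4 UMIs the median was 5 over 11 wells, with 5 to 9 it was 6 over 34 wells, and with 10 or more it was 9 over 33 wells, none of which lacked the 17 genes. Median depth differed along this range, at 557 gene UMIs with 2 rule UMIs, 586 with 3 and 576 with 4. It was 679.5 with 5 to 9 and 795 with 10 or more, and the part of depth was not tested. In 7 NK wells all rule UMIs were Cd7, a surface protein that other lymphocytes carry too, and 82 wells still met the rule without Cd7.

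The border with T cells was not sharp. Of the 104 NK wells 10 also held 2 or more UMIs of the T genes, here Bcl11b, Cd28 and Thy1, and 35 held a UMI of the T cell receptor genes Trac, Trbc1 or Trbc2 (33.7%, 24.7% to 43.6%), against 379 of the 510 T wells (74.3%). Conversely 89 T wells held 3 or more UMIs of the NK rule genes. At this depth a missing Cd3 UMI does not show a missing transcript. Of 329 wells with 2 or more UMIs of Bcl11b, Cd28 and Thy1, 73 held 0 UMIs of Cd3d, Cd3e and Cd3g (22.2%).

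The well numbers form 2 runs, which divide into 5 and 6 blocks of 384 numbers, the size of a plate, and 10 of the 11 blocks held NK wells. The first run held 52 NK wells among 1526 kept wells (3.41%, 2.56% to 4.44%) and the second 52 among 1166 (4.46%, 3.35% to 5.81%). The T wells were divided differently, 360 to 150, so that NK wells were 12.6% of all NK and T wells in the first run (9.57% to 16.2%) and 25.7% in the second (19.9% to 32.3%). Because of this difference in mix the main comparisons with T wells are also given within each run.

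By block the share of NK wells went from 0% to 7.19%. The first run had 8 to 15 NK wells in each block. In the second run 3 blocks had 1 of 137, 0 of 98 and 4 of 124 wells, where 0 of 98 allows a share of up to 3.06%, and the other 3 had 14 of 265, 13 of 264 and 20 of 278. The first 3 of these blocks held 4 T wells together, and endothelial markers were 2.74% to 3.08% of their gene UMIs, against 0.0989% to 1.05% in the other 8 blocks. The part of these differences in the results was not tested.

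**Figure D1:**
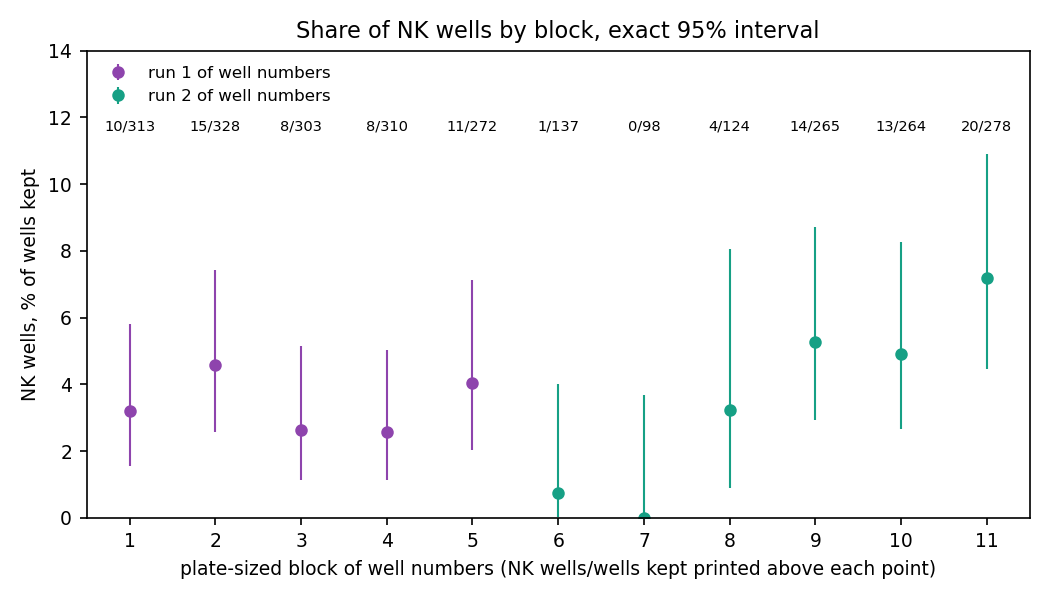
Share of NK wells among wells with at least 300 gene UMIs (y axis, percent) in each of 11 plate-sized blocks of well numbers (x axis), with exact 95% binomial intervals; colours give the run of well numbers and the printed pairs are NK wells over wells kept. The share lies between 2.58% and 7.19% in 9 of the blocks, and blocks 6 and 7 hold 1 and 0 NK wells.

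The NK wells held 83377 gene UMIs together, with a median of 671 per well (321 to 2807) and 463.5 genes. The median T well held 1004 gene UMIs and the median other well 651.5. Levels below are UMIs per 1000000 gene UMIs of a class of wells.

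Gzma, a granzyme that cleaves proteins in the target cell, was the most abundant gene of the rule. It had 444 UMIs in NK wells (5325 per 1000000, 4841 to 5844), against 487 per 1000000 in T wells and 193 per 1000000 in other wells. Within the NK wells the lowest count of Gzma was 0, the median 2 and the highest 29, and 59 of the 104 wells held a UMI (56.7%). After thinning every well to 300 UMIs that share was 48.1%, and it was 4.51% in T wells, 4.14% in other wells and 3.68% in 870 wells with at least 5 UMIs of endothelial markers, whose cells should lack it. Without thinning the endothelial share was 6.55%, at a median depth of 594 UMIs. The rule itself places these shares, since a well with 3 Gzma UMIs and none of the excluded genes was counted as an NK well and so left the other classes. Single T wells held up to 26 UMIs.

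The runs differed in Gzma. NK wells held 295 UMIs in the first run and 149 in the second (6481 and 3936 per 1000000), and T wells 84 and 196 (185 and 1612 per 1000000). The log2 ratio of NK to T wells was 5.13 in the first run and 1.29 in the second.

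Cd7 followed with 188 UMIs in 61 NK wells (2255 per 1000000), and was also at 590 per 1000000 in T wells. Gzmb, the granzyme that activates caspases, had 120 UMIs in 42 wells (1439 per 1000000, against 285 in T wells and 66.4 in other wells), with a median of 0 and at most 8 in 1 well. Klre1, a lectin-like receptor, had 73 UMIs in 40 wells. Ncr1, which encodes the activating receptor NKp46, had 37 UMIs in 26 wells, against 8 in 4 T wells. It was the gene of the rule with the largest NK to T ratio, at 444 against 13.9 per 1000000.

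The other genes of the rule were sparse. Cd244, the receptor 2B4 for CD48, had 24 UMIs in 15 NK wells. Klra9, of the Ly49 receptors, had 23 UMIs in 13 wells. Prf1, which encodes the pore-forming perforin, had 12 UMIs in only 7 wells.

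**Figure D2:**
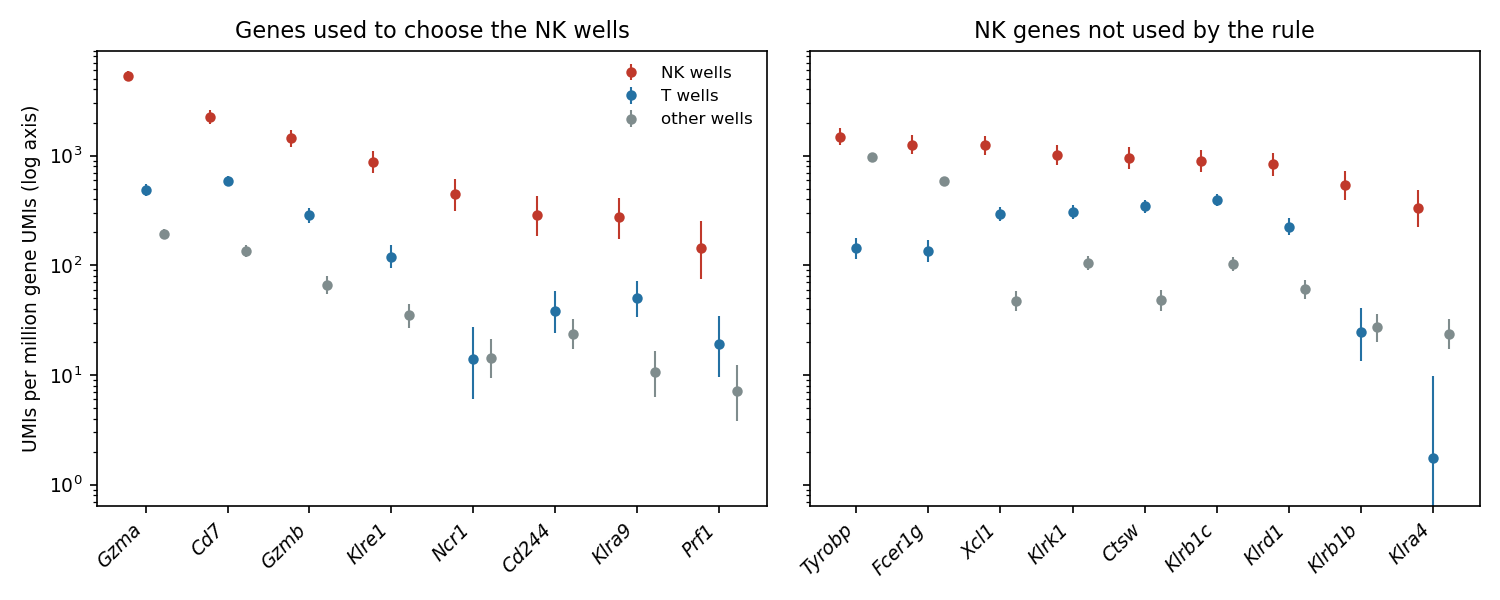
Levels of genes in NK, T and other wells (y axis, UMIs per 1000000 gene UMIs, log axis) with exact 95% Poisson intervals, for the 8 genes of the rule (left, a description of how wells were chosen) and for 9 NK genes the rule did not use (right). Gzma is highest in NK wells at 5325, and Tyrobp and Fcer1g are at 1487 and 1259 in NK wells, 965 and 586 in other wells and 143 and 136 in T wells.

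For all other genes the NK wells were compared with T wells to show which transcripts separate the 2 kinds of lymphocyte wells. A gene was called if it held at least 20 UMIs over both classes, differed at least 2-fold and had an interval of the ratio that excluded equality. Of 5764 genes 309 were called higher in NK wells (5.36%) and 186 lower (3.23%), together 8.59%, and the median log2 ratio over all 5764 genes was -0.06. UMIs of 1 gene can pile up in single wells. For 34 of the 309 genes 1 well held at least 50% of the NK UMIs, and 23 genes were seen in fewer than 5 NK wells. The direction was the same in both runs for 249 of the 309 and 159 of the 186. With each gene counted once per well 103 genes were called higher and 81 lower, and in the second run alone 72 and 60.

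Most lectin-like receptors were higher than in T wells. Of 13 tested killer lectin-like receptor genes outside the rule 11 were called higher and 0 lower, with a median log2 ratio of 2.12, against 5.36% called higher among all genes. Together the receptor genes had 6788 UMIs per 1000000 in NK wells (6241 to 7371), 1486 in T wells and 497 in other wells. The log2 ratio of these sums to T wells was 2.19 (2.04 to 2.35), with 2.42 in the first run and 1.77 in the second. These sums include Klre1 and Klra9, which chose the wells.

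Klra4 and Klra8 encode Ly49D and Ly49H, activating members of the Ly49 family, of which Ly49H binds a viral decoy on infected cells. Klra4 had 28 UMIs in 8 NK wells and 1 UMI in T wells (log2 7.59). Klra8 had 22 UMIs in 6 NK wells and 2 in T wells (log2 6.25). Both were higher in NK wells in each run, 5.64 and 5.38 for Klra4 and 7.02 and 4.85 for Klra8 on the log2 scale, where the first value for Klra4 is a lower bound because T wells held none. Few wells carried these genes. Of the 104 NK wells 76 held no UMI of any Klra gene, 20 held 1 gene, 4 held 2 and 4 held 3 or more, and 3 of the 8 wells with Klra4 also held Klra8.

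Klrb1b, an inhibitory receptor of the NKR-P1 family, was more widespread. It had 45 UMIs in 30 NK wells (540 per 1000000), 14 in T wells (24.4 per 1000000) and 49 in other wells (27.1 per 1000000). Its log2 ratio to T wells was 4.47 (3.58 to 5.45), with 4.69 and 3.93 in the runs. After thinning 16.3% of NK wells held it, against 1.18% of T wells and 0.345% of the wells with endothelial markers. Its relatives Klrb1a and Klrb1f stood at 6.31 and 2.18.

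The CD94 and NKG2 receptors differed from T wells less. Klrd1, which encodes CD94, had 70 UMIs in 42 NK wells and a log2 ratio of 1.90 (1.46 to 2.33). Its partners Klrc1 (NKG2A, inhibitory) and Klrc2 (NKG2C, activating) stood at 1.61 and 2.12. Klrk1, the activating receptor NKG2D, had 85 UMIs in 44 wells and stood at 1.73. Klrb1c, which encodes NK1.1, had 75 UMIs in 38 NK wells but also 227 in 114 T wells, and stood at 1.19. Klri2, which pairs with Klre1, had 24 UMIs in 11 wells against 5 UMIs in T wells (log2 5.05).

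Some of these genes resemble each other at the 3′ end that MARS-seq reads. The 30-base words in the last 300 bases of each gene's longest coding transcript in GENCODE M21 were looked for in the whole transcripts of its relatives, a measure that is not the same in both directions. Of the words of Klrc1 88.9% occur in Klrc2, and of those of Klra9 64.6% in Klra3. For Klra8 the share found anywhere in the family was 53.9% and for Klra4 9.96%, so the split of UMIs between such relatives is uncertain. None of the words of Gzma, Gzmb, Klrd1, Klre1, Klrk1, Klrb1b, Klrb1c, Klrb1f and Klri2 occurred in a relative, but 4.06% of those of Klrb1a occur in Klrb1b and 22.5% of those of Klri1 in Klri2.

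The receptor genes also share a chromosome. Of the 15 genes with the largest ratio to T wells 5 lie on chromosome 6, as do 9 of the 15 with the largest ratio to other wells, against 5.38% of the tested genes. Among the genes called higher than in T wells 9.82% lie on chromosome 6.

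**Figure D3:**
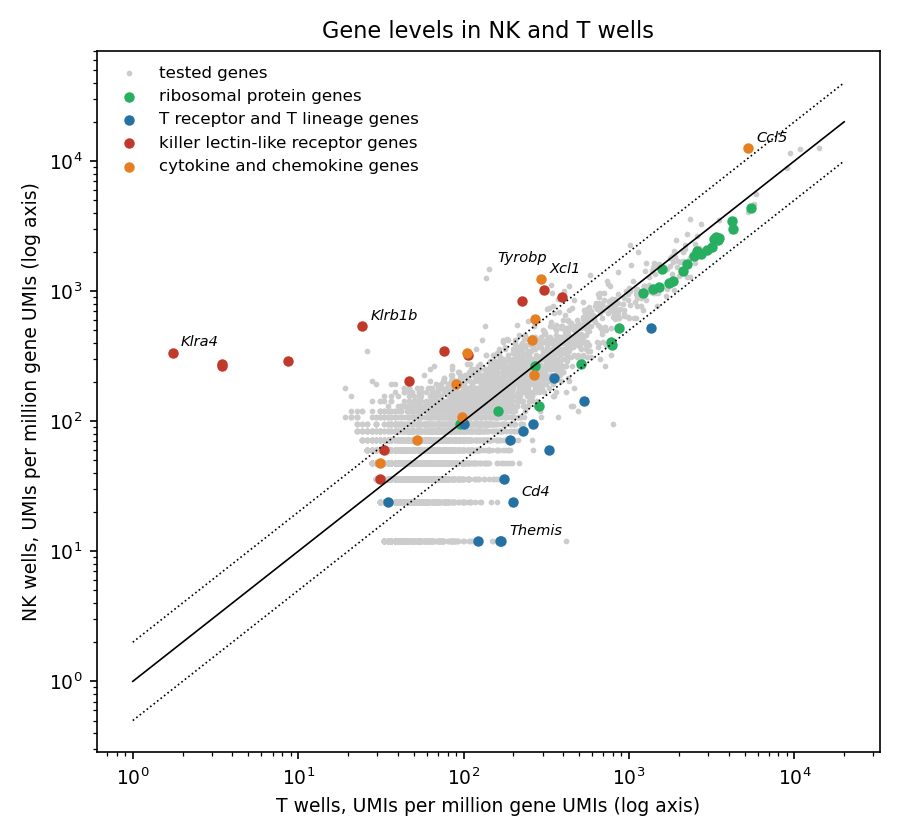
Level of each tested gene with at least 1 UMI in both classes, in T wells (x axis) and NK wells (y axis), as UMIs per 1000000 gene UMIs on log axes; colours mark 4 gene lists, the solid line is equality and the dotted lines a 2-fold difference. Of the 13 killer lectin-like receptor genes 11 were called higher, with Klra4 at 336 against 1.74, and most T lineage genes lie below the lines. Of 28 ribosomal protein genes 27 lie under equality, 2 of them beyond the lower dotted line.

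Among 18 tested signalling genes 2 adaptor genes were called higher and 4 genes lower, against 5.36% and 3.23% of all genes. Tyrobp encodes DAP12, the adaptor of activating Ly49 and other receptors. It had 124 UMIs in 61 NK wells (1487 per 1000000) and 82 in 47 T wells (143 per 1000000), a log2 ratio of 3.38 (2.97 to 3.80). Fcer1g, the Fc receptor gamma chain, had 105 UMIs in 48 NK wells against 78 in T wells (log2 3.21, 2.78 to 3.66). Both were above T wells in each run, at 4.03 and 2.11 for Tyrobp and 3.46 and 2.72 for Fcer1g. Neither is limited to NK cells, since other wells held Tyrobp at 965 and Fcer1g at 586 per 1000000.

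The 4 signalling genes called lower serve antigen receptors among others. Lat, the linker phosphorylated on T cell activation, stood at -1.90 on the log2 scale and Cd247, the zeta chain of the T cell receptor and of CD16, at -1.40. Plcg1, a phospholipase, stood at -2.19 and Sh2d1a, the adaptor SAP of SLAM receptors, at -2.83, with 2 and 1 UMIs in NK wells. Hcst, which encodes DAP10 and serves NKG2D, was at 528 per 1000000 in NK and 431 in T wells (log2 0.29, -0.21 to 0.76). Zap70 and Lck, kinases that both lineages use, were within 2-fold of T wells at -0.46 and -0.10.

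Granule genes outside the rule differed less from T wells than the receptors did. Of 13 tested 2 were called higher and 0 lower, against 5.36% and 3.23% of all genes, and the median log2 ratio was 0.11. The 2 were Ctsw, a cathepsin of cytotoxic lymphocytes, with 80 UMIs in 28 NK wells (log2 1.48, 1.08 to 1.86), and Serpinb9, an inhibitor that protects the cell from granzyme B, with 21 UMIs in 13 wells (2.01, 1.16 to 2.82). Nkg7 had 167 UMIs in 67 NK wells, at 2003 per 1000000 against 1132 in T wells (0.82, 0.57 to 1.07), short of 2-fold. Srgn, the proteoglycan that packs granules, was level with T wells at -0.12 (-0.47 to 0.21), and Gzmk had 1 UMI in NK wells and 31 in T wells.

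Chemokine transcripts were higher in NK wells, but not equally in both runs. Of 11 tested cytokine and chemokine genes 5 were called higher and 0 lower, against 5.36% and 3.23% of all genes, with a median log2 ratio of 0.71. Ccl5, a chemokine of cytotoxic lymphocytes, was the most abundant, with 1041 UMIs in 96 of 104 NK wells and a median of 7 per well, from 0 to 69. Its level was 12486 per 1000000 against 5224 in T wells, a log2 ratio of 1.26 (1.15 to 1.36), which was 1.79 in the first run and 0.16 in the second. Ccl4 stood at 1.18 pooled, 3.40 in the first run and -0.38 in the second, and Ccl3 at 1.69, 2.32 and 0.57. Summed over the list the log2 ratio was 1.64 in the first run (1.52 to 1.77) and 0.25 in the second (0.12 to 0.38).

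Xcl1 kept its direction across the runs. This chemokine, which attracts cross-presenting dendritic cells, had 103 UMIs in 35 NK wells (1235 per 1000000) and 169 in 102 T wells (294 per 1000000). The log2 ratio was 2.07 (1.70 to 2.43), with 1.76 and 2.33 in the runs, and 1 well held 19 of the UMIs. Tnfsf10, the death ligand TRAIL, had 16 UMIs in 11 wells (1.09, 0.18 to 1.92). Fasl was at 420 against 257 per 1000000 (0.71, 0.13 to 1.25), and Ifng had 6 UMIs in 5 NK wells, too few to place (0.46, -1.09 to 1.75).

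**Figure D4:**
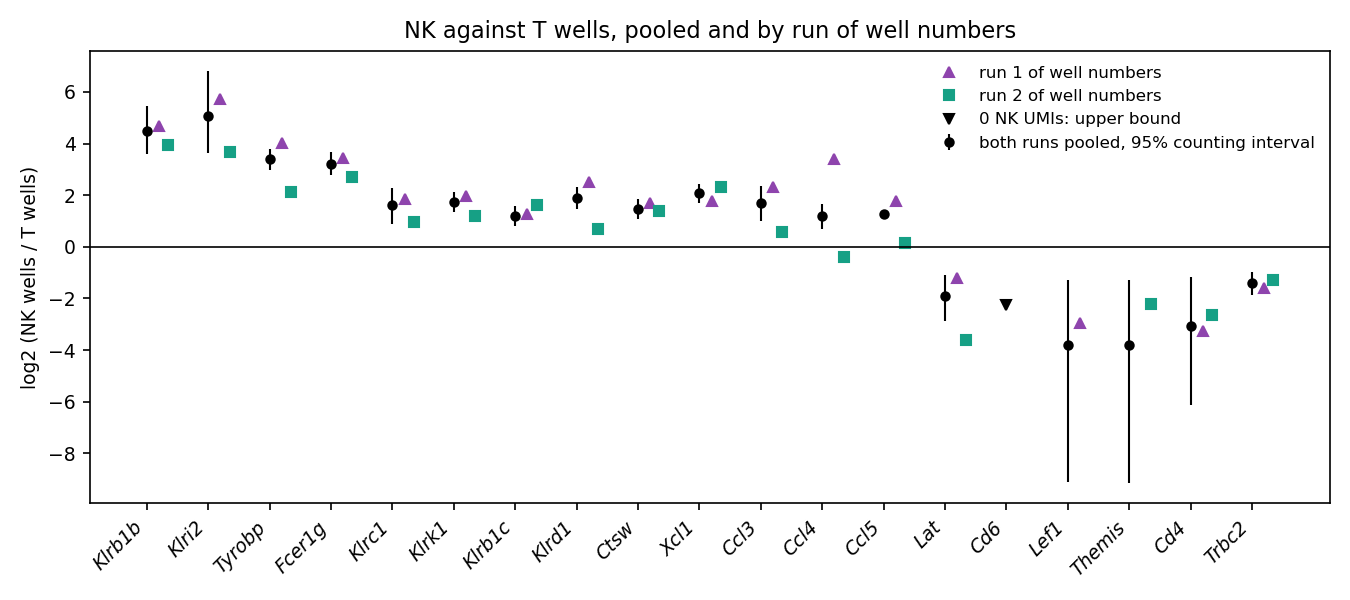
Log2 ratio of NK to T wells (y axis) for 19 genes (x axis), with both runs pooled and a 95% counting interval (black) and within each run of well numbers (coloured, drawn where both classes held a UMI); the triangle for Cd6 is an upper bound, as NK wells held 0 UMIs. Receptor and adaptor genes lie above 0 in both runs, Ccl4 lies at 3.40 in the first run and -0.38 in the second, and T lineage genes lie below 0.

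Of 12 tested activating and inhibitory receptors outside the lectin family 2 were called higher and 1 lower, against 5.36% and 3.23% of all genes, and the median log2 ratio was 0.10. The 2 were Slamf7, also known as CRACC, with 23 UMIs in 17 NK wells (log2 1.40, 0.64 to 2.12), and Fcgr3, the Fc receptor CD16 of antibody-dependent killing, with 11 UMIs in 9 wells (1.92, 0.72 to 3.05). Cd69, an early activation marker that holds lymphocytes in tissue, was lower, with 5 UMIs in NK wells against 152 in T wells (-2.14, -3.78 to -0.89). Among cytokine receptors and their signalling genes 1 of 23 was called higher, Stat3 (1.15), and 0 lower, a share near that over all genes. Il2rb, the shared receptor chain for IL-2 and IL-15, was at 816 against 663 per 1000000 (0.30, -0.09 to 0.68).

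Of 15 tested homing receptor genes 2 were called higher and 3 lower, against 5.36% and 3.23% of all genes, and the median log2 ratio was -0.45. Cxcr6, which binds CXCL16 on liver sinusoidal endothelium, was lower, with 22 UMIs in 16 NK wells against 411 in 204 T wells (-1.44, -2.13 to -0.82, and -0.94 and -2.36 in the runs). Ccr2 and Itga4 were the others called lower, at -1.79 and -1.04.

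Of 25 tested lymphoid transcription factor genes 3 were called higher and 4 lower, against 5.36% and 3.23% of all genes. Zeb2 (log2 1.70), Irf8 (1.26) and Bhlhe40, at 192 against 95.7 per 1000000, were higher, with 8, 16 and 16 UMIs in NK wells. Tcf7 (-2.45) and Lef1 (-3.78), partners in T cell development, and Runx1 (-1.49) were lower, and Prdm1 was at 0 UMIs in NK wells and 43 in T wells, at least 2.08-fold lower. Tbx21, which encodes T-bet, had 11 UMIs in 10 NK wells and a log2 ratio of 0.54, and Eomes had 7 UMIs in 4 wells (1.34, -0.15 to 2.66). Both intervals included equality as well as a 2-fold difference. Id2, needed for NK and ILC development, was at 2279 against 2192 per 1000000 (0.06, -0.17 to 0.28).

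T lineage genes outside the rule were lower as a group. Both the exclusion of Cd3 wells from the NK wells and the choice of T wells by T genes favour this, so it is a description only. Of 16 tested 12 were called lower and 0 higher, against 3.23% and 5.36% of all genes, with a median log2 ratio of -2.09. Themis, a T cell signalling protein, had 1 UMI in NK wells and 97 in 53 T wells (-3.81). Cd5 had 1 against 70 (-3.34) and Cd4 2 against 115 (-3.06). Cd6 had 0 against 99 and was at least 4.79-fold lower. Trbc2, the second constant gene of the T cell receptor beta chain, still had 43 UMIs in 27 NK wells (516 per 1000000, against 1360 in T wells and 184 in other wells), a log2 ratio to T wells of -1.40 (-1.88 to -0.96).

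Ribosomal protein genes were mostly slightly lower. Of 28 tested genes 27 had a log2 ratio below 0, with a median of -0.47, and 2 were called lower, against 3.23% of all genes. Their summed level was 43165 per 1000000 in NK wells, 58743 in T wells and 34944 in other wells. The log2 ratio of the sums to T wells was -0.44 (-0.49 to -0.39), with -0.47 and -0.45 in the 2 runs and -0.53 after thinning to 300 UMIs per well. MHC class I genes had a median of 0.11 and 0 of 16 called in either direction, against 8.59% of all genes, which is too few genes to set the list apart.

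The remaining genes with the largest ratios had few UMIs. Above T wells these were Itgax (CD11c; 29 UMIs in 15 NK wells, log2 3.74), Plek (15 UMIs, 3.23), Mmrn2 (13 UMIs, 12 of them in the second run, 2.90), Pitpnb (2.87), Atp1b1 (2.70), Aasdhppt (2.52), Ncoa7 (2.50) and Rcn2 (2.41, but -0.64 in the second run). Mmrn2 is an endothelial gene. Below T wells, Igj and Igkc are plasma cell genes, and the 240 UMIs of Igj in T wells came from 10 wells. Slfn1 and P2rx7, of T cells among others, had 1 UMI each in NK wells against 87 and 85. Rpl17-ps1, Rexo2, Dda1, Jhdm1d, Atxn10, Nudc and Aldh9a1 also had 1 UMI in NK wells, against 58 to 70 in T wells.

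Genes of other cell types were present in NK wells. Hepatocyte transcripts such as Alb were at 9919 per 1000000 over 12 genes, against 6499 in T wells and 13946 in other wells, in 101 of 104 NK wells. All 12 were above T wells, none called, and the log2 ratio of the sums was 0.61 pooled but 0.46 and 0.14 in the runs. Endothelial markers were at 1583 against 903 per 1000000, with 3 of 16 called higher, against 5.36% of all genes. The log2 ratios of their sums were 0.03 and 0.88 in the runs, and 1 marker, Stab1, was at 0 UMIs. B cell markers were in 32 NK wells, but 111 of their 115 UMIs were of the MHC class II chain Cd74, seen in 30 wells. Of these 11 markers 7 were at 0, Cd79a and Pax5 among them, and Cd79b by the rule. Kupffer cell markers were in 38 wells, at 936 against 1141 per 1000000, with 1 of 11, Clec4f, at 0 by the rule. The part of such transcripts in the genes called was not tested.

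A group of 3 NK wells stood apart. They held 154, 56 and 21 UMIs of the MHC class II genes H2-Aa, H2-Ab1, H2-Eb1 and Cd74, 72.9% of the 317 in all NK wells, and 1, 0 and 0 UMIs of the 17 NK genes. All 3 lay in the second run. H2-Aa was called higher in NK than T wells (1.72) and Cd74 as well (1.20), and without these 3 wells they stood at -0.81 and -0.22. Of 5 tested dendritic cell markers, which include such genes, 4 were called higher than in T wells, against 5.36% of all genes. The log2 ratio of the sums of that list was -0.07 in the first run and 2.16 in the second.

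Against the 2078 other wells, which carried markers of endothelial, Kupffer, B and dendritic cells, 702 of 9874 genes were called higher in NK wells (7.11%) and 637 lower (6.45%), together 13.6%. The median log2 ratio over these genes was -0.19. With median-of-ratios size factors, which shift the ratios by -0.25, the counts were 475 higher and 879 lower. Of 14 tested lectin-like receptor genes 12 were called higher and 0 lower. Klri2 stood at 4.70, Xcl1 at 4.70, Klrb1f at 4.65, Klra8 at 4.65, Klrb1a at 4.64 and Klrc1 at 4.44 on the log2 scale. Ctsw (4.32), Klrb1b (4.31), Klrc2, Fasl (3.89), Klra4 (3.82) and Klrd1 followed, with Klrc2 at 204 against 11.1 and Klrd1 at 839.6 against 60.3 per 1000000. Nrgn (3.90), Tnfrsf9 (3.85), the costimulatory receptor 4-1BB, and Samd3 (3.75) had 8 to 13 UMIs in NK wells.

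The adaptor genes stood less far above other wells than above T wells. Tyrobp was at 1487 against 965 per 1000000 (log2 0.62, not called) and Fcer1g at 1259 against 586 (1.10, called). Cytokine and chemokine genes had 9 of 10 called higher and 0 lower. Of 21 tested adaptor and signalling genes 11 were called higher and 2 lower, against 7.11% and 6.45% of all genes. Zap70 (2.80), Lck (2.45) and Hcst (2.45) were among those called higher. Kupffer cell markers outside the rule had 10 of 10 called lower, which the exclusion of wells with Clec4f favours. Endothelial markers had 16 of 16 called lower, against 6.45% of all genes.

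The NK wells also differed among themselves. After thinning to 300 UMIs, the variance of the count per well over its mean was taken for the 114 genes with at least 30 UMIs, for which counting alone gives about 1 and the median was 1.27. It was largest for Sepp1, at 6.27, then Ccl5 at 5.16 and Gzma at 4.05. Gm10925, Malat1 and Tmsb4x followed at 2.97, 2.40 and 2.37, and then Xcl1 at 2.18, Gzmb at 2.16, Alb at 2.05 and AC113316.1 at 1.93. Sepp1, selenoprotein P, and Alb are made by hepatocytes, and Sepp1 was at 6082 per 1000000 in other wells against 1403 in NK wells. Gzma and Gzmb were used by the rule, which bears on their spread.

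UMIs of both marker lists of the liver populations were found in NK wells. The ILC1-type list did not separate NK from T wells by its sum, at 3766 against 3656 per 1000000 (log2 0.04, -0.13 to 0.21). Xcl1 alone gave 103 of its 314 UMIs in NK wells and 169 of its 2102 in T wells. Of its 16 tested genes 12 were below 0, with a median of -0.35, and 3 were called higher and 1 lower. A UMI of the list was in 75.0% of NK and 87.5% of T wells. The circulating list was at 2375 per 1000000 in NK wells, 1491 in T wells and 2615 in other wells. Of its 13 tested genes 5 were called higher than in T wells and 1 lower, against 5.36% and 3.23% of all genes. Of the 104 NK wells 37 held UMIs of the ILC1-type list only, 18 of the circulating NK-type list only, 41 of both and 8 of neither. In the ILC1-type list Xcl1 was in 35 wells, Cxcr6 and Hopx in 16 each, Cd160 in 15, Tnfsf10 and Il7r in 11 each, Cd200r1 in 5 and Itga1 in 3. In the circulating list Irf8 was in 14 wells, Ly6c2 in 12, Emb in 10, Klra4 in 8 and Eomes, S1pr5 and Itgam in 4 each. The median depth was 710 UMIs in the group with both lists, 713 in the ILC1-type wells and 576 in the circulating-type wells. In total the 41 wells with both held 38436 gene UMIs and the 37 ILC1-type wells 27918, so their mean depth was higher. The part of depth in holding both lists was not tested.

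The 37 and the 18 wells were compared for genes of neither list nor the rule. Of 282 genes with at least 20 UMIs 27 were called higher in the ILC1-type wells (9.57%) and 20 lower (7.09%). Higher were Id2, with 89 UMIs against 7 (log2 2.51, 1.41 to 3.86), Klrk1 (2.27), Ly6e (2.18), Il2rb (1.93), Rgs1 (2.48) and Trbc2 (20 against 1, 3.16). Klrb1b had 24 UMIs in 15 ILC1-type wells and 0 in the circulating-type wells, a log2 ratio of at least 1.84. Lower were Tyrobp (-1.37), Vim (-2.22), Lgals1 (-1.63) and genes known from other liver cells, Lyz2 of myeloid cells (-3.20), Sepp1 (-2.48), Dnase1l3 of endothelial cells (-3.66) and the MHC class II chain Cd74 (-1.78). The 33 UMIs of Lyz2 came from 2 wells. The median count of rule UMIs was 5 in the ILC1-type wells and 3.5 in the circulating-type wells, near the threshold of 3. Ly6c2, Ccr2 and Irf8 of the circulating list also stand in the lists of monocyte or plasmacytoid dendritic cell markers used here. The part of weakly marked or mixed wells in this comparison was not tested.

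A split by Gzma, chosen after its spread was seen, gave 59 NK wells with a UMI and 45 without. Wells without Gzma had to reach 3 UMIs through the other genes of the rule, so Cd7 was in 38 of the 45 (84.4%) and in 23 of the 59 (39.0%). Gzmb was in 24 of 59 and 18 of 45, which is 40.7% and 40.0%, with 78 and 42 UMIs. Ccl5 was in 54 and 42 wells, at 16440 per 1000000 with Gzma and 8370 without (log2 0.97, 0.79 to 1.16). The ILC1-type list stood at 2705 per 1000000 with Gzma (2233 to 3247) and 4870 without (4217 to 5596). The circulating list stood at 3434 with Gzma (2899 to 4038) and 1273 without (950 to 1669). Other lists moved with the split. T lineage genes were at 1458 with Gzma (1118 to 1869) and 2643 without (2168 to 3191), and ribosomal protein genes at 39842 (37967 to 41786) and 46624 (44553 to 48766). Cd7 itself had 81 UMIs in the 37 wells with the ILC1-type list only and 9 in the 18 wells with the circulating list only (log2 2.01). The part of the rule in the changes of the 2 lists was not tested, nor was that of T lineage transcripts.

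Gene by gene, all 12 genes of the ILC1-type list with at least 7 UMIs in NK wells were in a larger share of the wells without Gzma. Among genes of the list with 5 or 6 UMIs, Cd200r1 (3 of 59 and 2 of 45) and Itga1 (2 and 1) were in a slightly larger share of the wells with Gzma. Ckb (2 and 3) was in a larger share of the wells without it. Those wells were also deeper, with a median of 713 UMIs against 611, and more UMIs raise the share of wells in which any gene is seen. The shares were close for Hopx (9 of 59 and 7 of 45), Ltb (5 and 4) and Tnfsf10 (6 and 5), and by level Hopx was at 259 per 1000000 with Gzma and 196 without (log2 0.40, -1.05 to 1.92). Cxcr6 was in 12 of 45 against 4 of 59, Cd160 in 12 against 3, Il7r in 8 against 3 and Rora in 7 against 0. Of 12 such genes of the circulating list 10 were in a larger share of the wells with Gzma, all but Zeb2 and Emb. Ly6c2 was in 11 of 59 against 1 of 45, Irf8 in 11 against 3 and Klra4 in 7 against 1. Among genes of neither list Tyrobp was higher with Gzma (log2 1.29, 0.71 to 1.90) and Il2rb lower (-1.42, -2.27 to -0.63), while the intervals for Klrk1, Klrd1 and Ncr1 included equality. The groups overlapped, since 37 of the 59 wells with Gzma also held a UMI of the ILC1-type list.

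The direction did not hold in both runs for every gene. Cd160 was at 231 with Gzma and 563 without per 1000000 in the first run and at 0 and 469 in the second. Ly6c2 was at 693 and 0 in the first run and 302 and 46.9 in the second. Klra8 was at 461.97 with Gzma and 51.2 without in the first run but 0 and 422 in the second, and Xcl1 at 1193 and 716 in the first but 967 and 1970 in the second, so these genes turned.

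**Figure D5:**
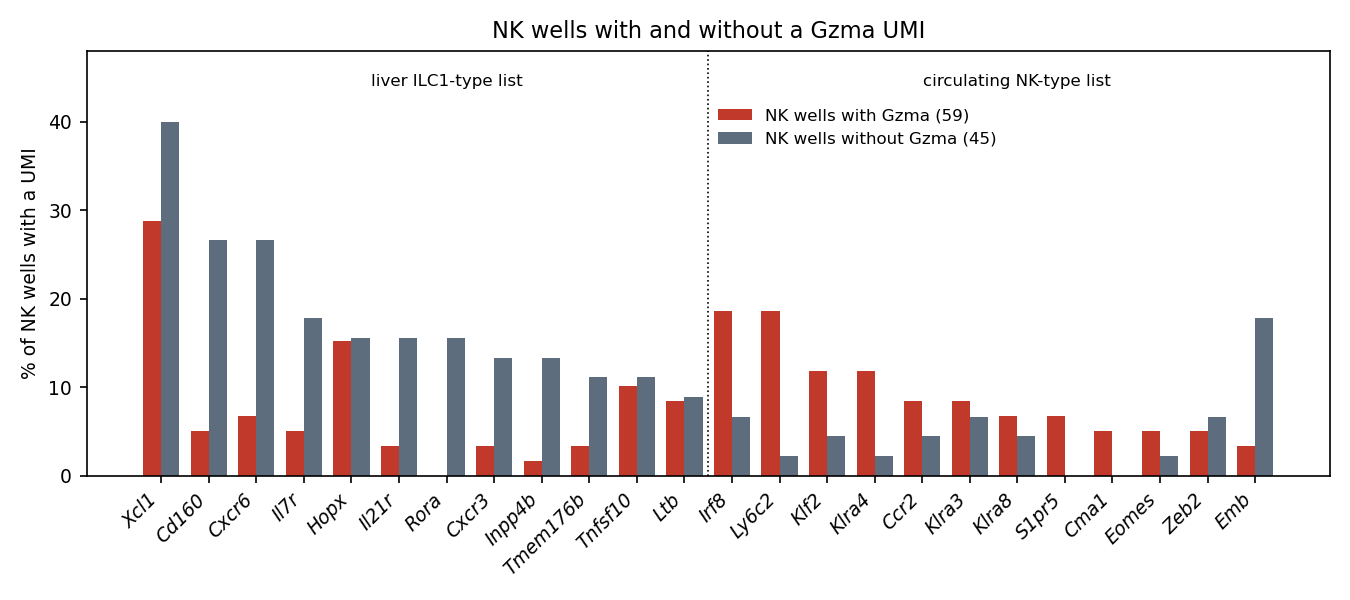
Share of NK wells with at least 1 UMI of each gene (y axis, percent) for the 59 wells with a Gzma UMI (red) and the 45 without (grey), for the genes with at least 7 UMIs in NK wells of the ILC1-type list (left of the dotted line) and of the circulating list (right). All 12 genes on the left are in a larger share of wells without Gzma and 10 of the 12 on the right in a larger share of wells with it. Genes with fewer UMIs, such as Cd200r1 and Itga1, which go the other way, are not drawn.

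Most NK genes had few or no UMIs in the pairs of a hepatocyte and an attached CD31+ cell. Over 4621 pairs with 56976156 gene UMIs the 8 genes of the rule had 6 UMIs together (0.105 per 1000000, 0.0386 to 0.229). The 6 UMIs lay in 6 pairs, 2 of Cd244 and 1 each of Gzmb, Klre1, Prf1 and Cd7, and Gzma, Ncr1 and Klra9 were at 0. No pair held 3 or more, which allows a share of up to 0.0649%. Of genes outside the rule Klrb1c, Klrk1 and Il2rb had 1 UMI each, and Xcl1, Ctsw, Klrd1 and Nkg7 had 0. A list of 20 NK genes outside the rule held 807 UMIs in all, of which 647 were of Car2, carbonic anhydrase 2, in 534 pairs, 129 of Fcer1g and 27 of Tyrobp.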

How the data were processed

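Libraries were made by MARS-seq from single wells, per the labels' protocols. The submitters' processing notes name bcl2fastq (version 2.15.0.4) and the build mm9. Neither an aligner nor an annotation is stated in those notes. The deposited values are counts of UMIs per gene symbol and well, which the authors did not normalize. The 92 spike-in rows, 46.2% of UMIs in kept wells, were left out. UMIs were summed over the wells of a class and given per 1000000 gene UMIs, with exact Poisson intervals, exact conditional binomial intervals for ratios and Clopper-Pearson intervals for shares (scipy 1.17.1, Python 3.11.15), all at 95%. A class at 0 was set to a floor of 3 counts over the class, and such folds are bounds. A gene at 0 in NK wells ranks lowest in a list's median.

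Wells have no map to mice, so each table was 1 sample and no difference was tested. No well name occurred in both tables, and no doublet caller was run. Of 444 list genes 7 were not found and 5 were matched by an older symbol. Sequences are from RefSeq (GRCm38.p6). The calling rule was also run on simulated Poisson sums of each class. These held no spread between wells, so they do not show how calls behave under such spread. The members and the gene lists were chosen with earlier results of these data known. Named genes were those of the rule, the 15 largest folds among called genes above T, below T and above other wells, the 10 most variable, and in each list those with most UMIs or furthest from T wells. Genes named in the comparisons within NK wells, and in the split by Gzma, were chosen after their values were seen. Some genes are not reported here, and the counts of list genes in the split by Gzma leave them out.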

Additional observations from a re-analysis of the deposited data

How the results depend on the processing

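Of the 309 genes called higher and 186 lower in NK than T wells, thinning every well to 300 UMIs left 68 and 57, of which 35 and 24 were the same genes, and counting each gene once per well left 103 and 81. The second run alone gave 72 and 60, and the first 106 lower. A minimum of 50 UMIs gave 119 higher, and a rule of 2 UMIs 288 lower. Without wells with 2 or more B cell, Kupffer or endothelial marker UMIs (65 NK and 284 T wells left) 170 were higher and 97 lower. With hepatocyte markers also counted, 5 NK and 14 T wells were left, with 4 higher and 8 lower. Against other wells (702 higher, 637 lower) thinning gave 349 and 203, once per well 365 and 381, the second run 370 and 229, the first run 414 lower, removal of NK wells with marker UMIs 389 lower, and that with hepatocyte markers 305 and 10. The rule found 67 wells at 5 UMIs and 251 with no limit on the 6 excluded genes. Thinned, the ILC1-type and circulating-type wells differed by 10 genes higher and 2 lower, and 0 pairs held 3 UMIs, where 6 held 1.

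Directions reversed for Rcn2 (-0.64) and Ccl4 (-0.38) in the second run, for Tnfsf10 (-0.21) after thinning, for Igkc counted once per well (0.069) and for Klrb1c in the 5 NK wells above (-0.26). H2-Aa reversed at 5 UMIs (-1.41), in the first run (-2.40), without the 3 MHC class II wells (-0.81) and without Cd7 in the rule (-0.65), and Cd74 in the first 3 of these settings (-0.32, -1.38, -0.22). The cause was not tested. Of 75 genes compared with T wells, all 75 kept their direction and call with median-of-ratios size factors or totals without ribosomal protein and mitochondrial genes. After thinning, 31 of 73 with a value kept both and 41 lost the call. Leaving out each block in turn gave 249 to 309 higher and 146 to 186 lower than T wells. The marker filter was not applied to other wells. The runs, once-per-well counts, filters without hepatocyte markers, without Cd7 and without MHC class II wells, and blocks were chosen after seeing the data. No paired analysis was possible because the wells cannot be assigned to replicates, and for the same reason no mouse could be left out. Depth limits single genes: at a median of 671 UMIs a well without a UMI is no evidence of absence.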
